A study of Homo sapiens with 2 samples.

Results

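The integrins and laminins are 38 genes of the 26506 in the deposited tables, 26 integrin chains and 12 laminin chains. They were chosen by gene family and not by their values, though with earlier results of these data known. The 26 integrin genes encode 18 alpha and 8 beta chains, and the 12 laminin genes encode 5 alpha, 4 beta and 3 gamma chains. Poly(A) RNA was sequenced from human corneal epithelial cells, an established line (ATCC CRL-11515), after 72 hours in either of 2 media. The SP group was grown in the special medium, which was DMEM/F12 plus antibiotic/antimycotic with EGF at 10 ng/mL, CaCl2 at 1 mM and fetal bovine serum at 10%. The KSFM group was grown in keratinocyte serum-free medium. RNA of 3 cultures was pooled for each medium, so each has 1 library, no difference has a replicate check and no p-value is given. The media differ in serum and base medium together, and the calcium and EGF of KSFM are not given in the labels, so the parts of these components cannot be told apart.

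Integrins are pairs of an alpha and a beta chain that span the plasma membrane and tie the matrix outside to the cytoskeleton inside. Laminins are trimers of an alpha, a beta and a gamma chain, secreted into the basement membrane on which an epithelium rests. Basal corneal epithelial cells hold on to that membrane through hemidesmosomes, in which the ITGA6 and ITGB4 chains bind a laminin that contains the LAMA3 and LAMB3 chains, and through ITGA3 paired with ITGB1, which binds the same laminin.

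The SP library held 16900472 counts and the KSFM library 21604652, of which the members took 101633 in SP and 107263 in KSFM. CPM values are counts relative to the scaled library size. The rule for calling a gene higher or lower in SP asked for 1 CPM or more in SP or KSFM, a difference of 2-fold or more, and an exact 95% interval of the ratio that left out equality. These intervals, given in parentheses after each fold, cover counting error only. Levels of different genes were compared in deposited TPM, which adjusts for transcript length. Of the 10 markers of corneal epithelium, 6 reached 1 CPM, and the list summed to 1421.5 TPM in SP and 758 TPM in KSFM. KRT19 alone made up 729 TPM of this sum in SP and 186 TPM in KSFM. Of the 6, 2 were called higher, none lower and 4 neither, and those 4 had ratios on both sides of 1. EPCAM, an epithelial adhesion gene, was among those above 1, with 449 TPM in SP and 301 TPM in KSFM. Others of the 4 had intervals wholly below equality. The keratin genes KRT15 and KRT19 were called higher in SP, 3.40-fold (2.51 to 4.66) and 3.43-fold (3.29 to 3.58), and the part of this difference in the results on the members was not tested. KRT14 and TP63, genes of basal cells, had 10 and 13 counts in SP and 4 and 5 in KSFM, and the corneal keratins KRT3 and KRT12 had 1 and 0 counts in SP and 0 counts each in KSFM. PAX6, the eye transcription factor, had 73 counts in SP and 69 in KSFM. The defining keratins of differentiated corneal epithelium were thus at or near 0 in both media.

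ITGB4, ITGB6, ITGB8, ITGB7, ITGA2B, ITGA4, LAMA2, LAMA4 and LAMB4 were called higher in SP, and ITGAE and LAMA1 were called lower. Of the 38 members, 30 reached 1 CPM in either library, and 19 of these were neither higher nor lower by the rule. The background over the 13632 genes at that level was 9.86% called higher and 6.77% called lower. ITGB7 and LAMB4 passed the level only through the SP library and so had to be high there. With the level asked of the mean of the libraries, 29 members remained, of which 8 were called higher and 2 lower, against 9.21% and 6.18% of all genes so filtered. Without the 2-fold rule, 19 members had an interval wholly above equality and 6 wholly below it, where 37.2% and 36.7% of all genes did. Most of the members called sit at low or middle levels, and of the 5 members with the highest TPM in each library only ITGB4 was called.

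**Figure D1:**
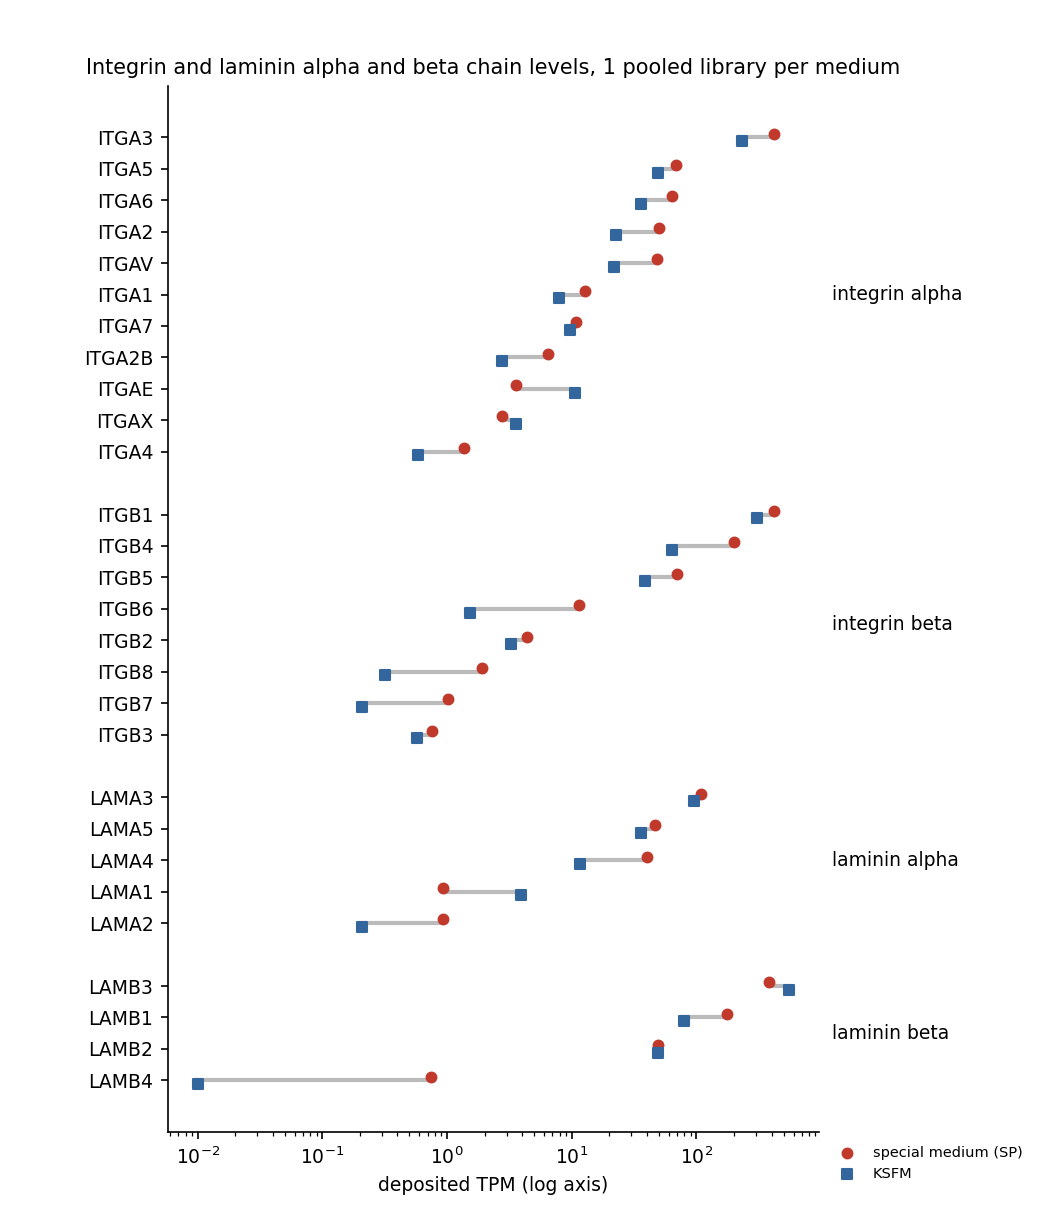
TPM of each integrin chain and each laminin alpha or beta chain at 1 CPM or more in either library, on a log axis, with 1 circle for the SP library and 1 square for the KSFM library. ITGA3, ITGB1 and LAMB3 have the highest levels in both libraries, and the gaps between circle and square are wide for ITGB6, ITGB8, LAMA1 and LAMB4.

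The promoter windows of 6 members are printed here because they cover chains called higher, a chain called lower and a laminin pair that was not called. Each runs from 250 bases before to 50 bases after the start that the table gives, from RefSeq on GRCh38.p14, 5′ to 3′ on the gene's own strand. Capitals mark matches on either strand to the AP-1 motif (TGANTCA), the GC box (GGGCGG) or an ETS motif (CCGGAAG).
ITGB6 promoter window (chr2:160200223-160200522, minus strand): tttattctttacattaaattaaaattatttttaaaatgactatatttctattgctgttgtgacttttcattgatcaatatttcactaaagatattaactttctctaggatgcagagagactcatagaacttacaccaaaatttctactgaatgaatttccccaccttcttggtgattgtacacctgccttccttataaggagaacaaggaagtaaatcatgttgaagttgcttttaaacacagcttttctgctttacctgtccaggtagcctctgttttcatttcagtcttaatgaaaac
ITGB8 promoter window (chr7:20330650-20330949, plus strand): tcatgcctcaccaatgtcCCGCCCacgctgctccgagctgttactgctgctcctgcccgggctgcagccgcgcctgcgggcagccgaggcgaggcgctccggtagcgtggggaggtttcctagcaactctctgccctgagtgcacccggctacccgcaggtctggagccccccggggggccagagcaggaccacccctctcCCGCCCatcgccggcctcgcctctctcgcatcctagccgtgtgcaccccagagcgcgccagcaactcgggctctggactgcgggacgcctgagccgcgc
LAMA4 promoter window (chr6:112254518-112254817, minus strand): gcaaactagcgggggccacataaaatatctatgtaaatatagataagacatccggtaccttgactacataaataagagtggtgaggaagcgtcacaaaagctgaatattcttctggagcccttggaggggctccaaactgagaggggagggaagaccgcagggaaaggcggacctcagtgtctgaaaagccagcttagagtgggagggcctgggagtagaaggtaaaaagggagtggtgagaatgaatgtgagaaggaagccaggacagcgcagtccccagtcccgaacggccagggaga
ITGAE promoter window (chr17:3801139-3801438, minus strand): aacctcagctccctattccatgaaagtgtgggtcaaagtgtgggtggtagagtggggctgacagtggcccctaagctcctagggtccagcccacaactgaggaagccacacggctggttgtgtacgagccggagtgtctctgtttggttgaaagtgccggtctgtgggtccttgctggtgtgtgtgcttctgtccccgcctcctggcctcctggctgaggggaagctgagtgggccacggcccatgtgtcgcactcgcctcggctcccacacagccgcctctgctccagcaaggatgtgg
LAMA3 promoter window (chr18:23872770-23873069, plus strand): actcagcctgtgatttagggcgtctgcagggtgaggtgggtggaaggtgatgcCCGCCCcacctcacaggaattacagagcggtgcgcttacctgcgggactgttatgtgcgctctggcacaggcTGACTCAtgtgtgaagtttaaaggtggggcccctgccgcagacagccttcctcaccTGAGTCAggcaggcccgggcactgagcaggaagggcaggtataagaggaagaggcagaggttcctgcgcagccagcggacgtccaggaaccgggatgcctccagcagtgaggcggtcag
LAMB3 promoter window (chr1:209651325-209651624, minus strand): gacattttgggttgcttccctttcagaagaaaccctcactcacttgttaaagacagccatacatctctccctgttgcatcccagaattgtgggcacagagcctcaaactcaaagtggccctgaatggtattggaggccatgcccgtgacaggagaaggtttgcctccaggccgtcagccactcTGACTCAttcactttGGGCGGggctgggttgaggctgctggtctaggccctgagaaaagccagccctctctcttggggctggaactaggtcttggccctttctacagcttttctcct
The ITGB6 window was poor in G and C (31.7%) with 0 CpG pairs, and the ITGB8 window was rich in them (71.7%) with 28 CpG pairs and 2 GC boxes. The LAMA4 and ITGAE windows matched none of the 3 motifs. The LAMA3 window held AP-1 matches beginning 125 and 69 bases before the start, and the LAMB3 window held one beginning 67 bases before it. Of the 38 members 26 were in the table, with 33 windows. Of these windows 3 held an AP-1 match, 19 a GC box and 3 an ETS match, and 7.71%, 45.0% and 10.3% of all 35116 windows held these motifs. LAMB3 has 3 windows in the table and 1 is shown, and the LAMA3 window lies at a start inside the gene, downstream of the outermost start in GENCODE release 29. Which start the cells used was not measured, and a match is a string of letters, not a measured binding site.

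Among the beta chains, ITGB6, the epithelial chain that pairs with ITGAV and binds latent TGF-beta, had 429 counts and 11.5 TPM in SP, against 83 counts and 1.54 TPM in KSFM. Its ratio was 6.59-fold (5.20 to 8.44). ITGB8, the other beta chain that pairs with ITGAV to bind latent TGF-beta, had 138 counts and 1.92 TPM in SP, against 32 counts and 0.32 TPM in KSFM. It was 5.50-fold higher (3.72 to 8.35), from a level near the lower end of what was counted. Their shared partner ITGAV had 2760 counts and 48.6 TPM in SP, against 1768 counts and 21.7 TPM in KSFM, and at 1.99-fold (1.88 to 2.11) it lay just under the 2-fold rule. ITGB6 thus stood at 0.236 of the ITGAV level in SP and 0.0708 of it in KSFM, in TPM. ITGB5, another partner of ITGAV and a vitronectin receptor chain, was 1.61-fold higher (1.51 to 1.71), and its TPM was 1.42 times that of ITGAV in SP and 1.77 times in KSFM. The TPM of ITGB6 was 0.166 of that of ITGB5 in SP and 0.040 of it in KSFM.

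ITGB4, the beta chain of hemidesmosomes with a long cytoplasmic tail, had 9299 counts and 201 TPM in SP, against 4201 counts and 63.8 TPM in KSFM. The ratio was 2.82-fold (2.72 to 2.93). Its only alpha partner ITGA6 had 3006 counts and 63.4 TPM in SP, against 2422 counts and 36.0 TPM in KSFM, which is 1.58-fold (1.50 to 1.67) and not called. The TPM of ITGB4 was therefore 3.17 times that of ITGA6 in SP and 1.77 times in KSFM. ITGA6 also pairs with ITGB1, the beta chain shared by many alpha chains, which had 415 TPM in SP and 307 TPM in KSFM and was 1.21-fold higher (1.18 to 1.24). Of the summed TPM of the beta chains, ITGB1 made up 58.9% in SP and 73.9% in KSFM. ITGB4 made up 28.5% in SP and 15.4% in KSFM, so the share of the ITGB1 transcript was smaller in SP although its level was higher. The remaining beta chains at 1 CPM were ITGB2, the leukocyte chain, with 102 counts in SP and 109 in KSFM, and ITGB3, the platelet and vitronectin receptor chain, with 30 and 32. Their intervals included equality. ITGB7, a lymphocyte chain, had 23 counts in SP and 5 in KSFM, a ratio of 5.87 with a wide interval (2.18 to 19.8).

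Among the alpha chains, ITGA3, the laminin-binding partner of ITGB1, led in both libraries with 415 TPM in SP and 233 TPM in KSFM. It was 1.60-fold higher (1.56 to 1.63) and made up 60.7% of alpha chain TPM in SP and 58.4% in KSFM. Its level equalled that of ITGB1 in SP, a ratio of 1.00, and was 0.758 of it in KSFM. The collagen receptor chain ITGA2 had 50.3 TPM in SP and 22.7 TPM in KSFM, 1.99-fold (1.88 to 2.10), and ITGA1, another collagen receptor chain, was 1.44-fold higher (1.26 to 1.64). The fibronectin receptor chain ITGA5 had 68.0 TPM in SP and 49.3 TPM in KSFM and was 1.24-fold higher (1.17 to 1.31). ITGA7, a laminin receptor chain of muscle, had 353 counts in SP and 458 in KSFM, and its interval included equality at 0.983 (0.853 to 1.13). The 5 alpha chains with the highest TPM were thus all higher in SP by factors between 1.24 and 1.99, none of them called.

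The alpha chains that were called had few counts. ITGAE, the chain that lets intraepithelial lymphocytes bind E-cadherin when paired with ITGB7, had 111 counts and 3.59 TPM in SP, against 466 counts and 10.6 TPM in KSFM. It was 3.29-fold lower in SP (2.67 to 4.09). ITGA4, which pairs with ITGB1 or ITGB7 on leukocytes, had 81 counts in SP and 50 in KSFM, 2.07-fold (1.43 to 3.001). ITGA2B, the platelet fibrinogen receptor chain, had 172 counts in SP and 104 in KSFM, 2.11-fold (1.64 to 2.72). ITGA2B and ITGA4 were the called members nearest to the 2-fold rule, with ITGA2, ITGAV and LAMB1 just outside it. ITGAX, a chain of myeloid cells, had 105 counts in SP and 194 in KSFM, a ratio of 0.690 (0.539 to 0.880), which was not called.

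Several of these chains are known from blood cells, whose markers were checked in the same libraries. The pan-leukocyte gene PTPRC had 0 counts in SP and 1 in KSFM, and CD53, SPI1 and CD3E had 0 counts in both. Of the 8 leukocyte markers, CORO1A and LAPTM5 reached 1 CPM and both were called higher in SP, with 693 and 515 counts in SP and 301 and 219 in KSFM. The list summed to 79.4 TPM in SP and 23.65 TPM in KSFM. Of the 6 platelet markers none reached 1 CPM, PF4, GP1BA and GP1BB had 0 counts in both libraries, and the list summed to 0.33 TPM in SP and 0.38 TPM in KSFM. The leukocyte and platelet markers at or near 0 were so in both media, while CORO1A and LAPTM5 were higher in SP, and the part of any blood cell RNA in the results was not tested.

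The other 7 integrin genes were below 1 CPM in both libraries. ITGA8 and ITGA9 had 0 counts in both, which allows up to 0.177 CPM in SP and 0.139 CPM in KSFM. ITGA10 and ITGA11, the other collagen receptor chains, had 14 and 6 counts in SP and 20 and 8 in KSFM. The leukocyte chains ITGAD, ITGAL and ITGAM had 2, 0 and 5 counts in SP and 3, 2 and 12 in KSFM. No difference was detectable for these genes at this depth.

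**Figure D2:**
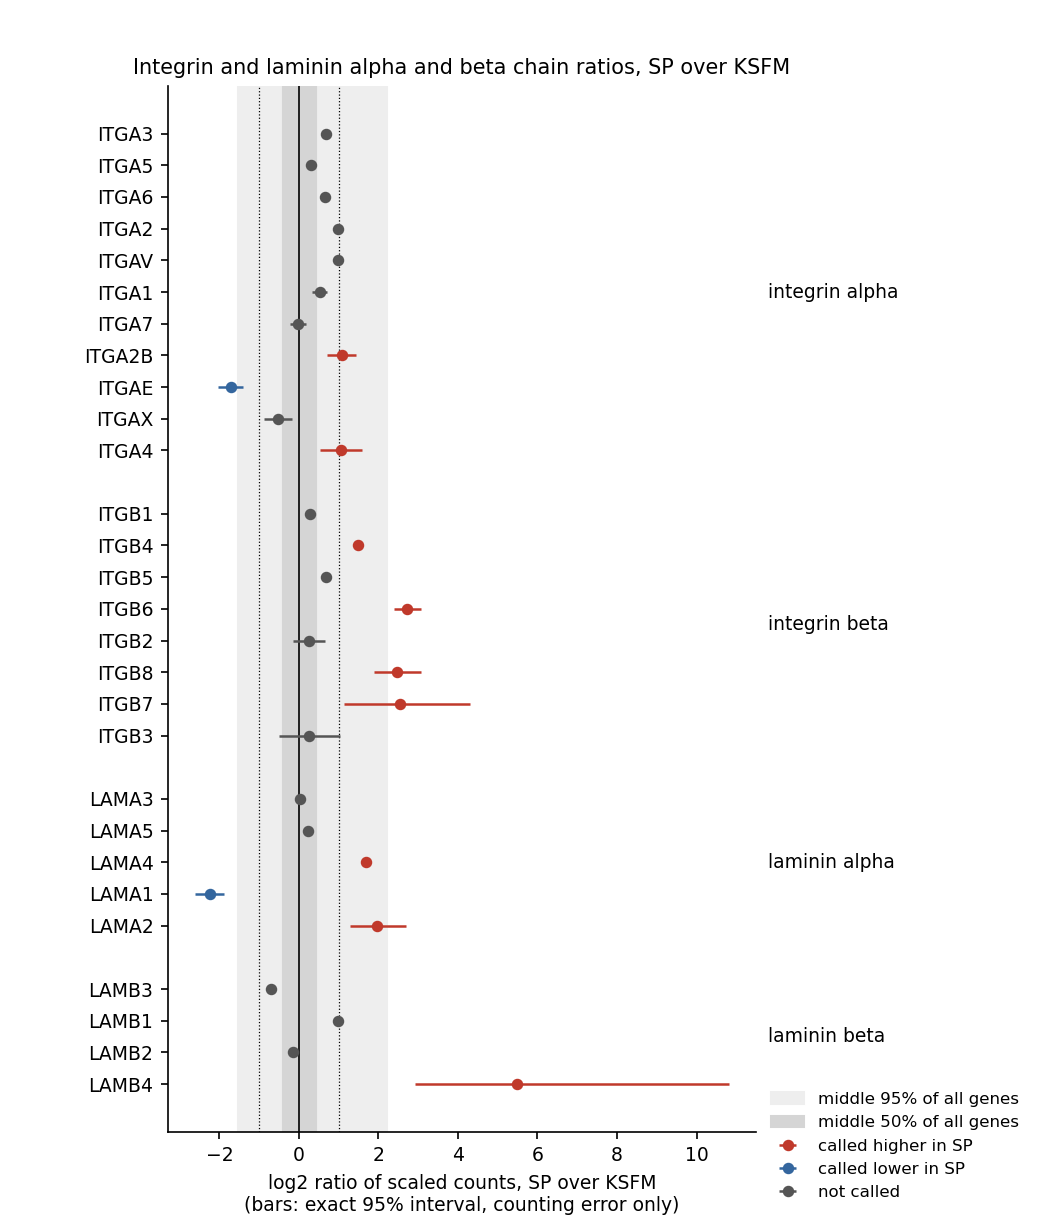
Log2 ratio of scaled counts, SP over KSFM, for each integrin chain and each laminin alpha or beta chain at 1 CPM or more in either library, with exact 95% intervals that cover counting error only and dotted lines at the 2-fold rule. The dark and light grey bands hold the middle 50% and 95% of all genes. All 8 integrin beta chains lie right of 0, with the intervals of ITGB2 and ITGB3 reaching across it, LAMA1 and ITGAE lie left of the lower line, and LAMB4 rests on 35 counts in SP and 1 in KSFM.

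The laminin alpha chains differed in direction. LAMA4, a chain of laminins best known from blood vessels and mesenchyme, had 2205 counts and 40.4 TPM in SP, against 881 counts and 11.6 TPM in KSFM, and was 3.19-fold higher (2.95 to 3.46). LAMA1, the chain of the earliest embryonic laminin, had 73 counts and 0.92 TPM in SP, against 441 counts and 3.93 TPM in KSFM, and was 4.74-fold lower (3.69 to 6.15). LAMA2, the muscle and nerve laminin chain, had 73 counts in SP and 24 in KSFM, 3.88-fold higher (2.42 to 6.43). The major epithelial chain LAMA3 had 5019 counts and 108 TPM in SP, against 6336 counts and 96.1 TPM in KSFM, a ratio of 1.01 (0.973 to 1.05). LAMA5, common to many adult basement membranes, had 46.8 TPM in SP and 35.9 TPM in KSFM and was 1.17-fold higher (1.13 to 1.22). LAMA4 made up 20.5% of laminin alpha TPM in SP and 7.87% in KSFM, close to LAMA5 in SP at 0.863 of its level and far below it in KSFM at 0.324.

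LAMB3, the beta chain that joins LAMA3, was not higher in SP. It had 12568 counts and 385 TPM in SP, against 25899 counts and 556 TPM in KSFM, which is 1.62-fold lower (1.58 to 1.65) and short of the 2-fold rule. The LAMB3 level was 3.56 times that of LAMA3 in SP and 5.79 times in KSFM, so these chains of the hemidesmosomal laminin were closer in level in SP. LAMB3 and LAMA3 thus had ratios of 0.619 and 1.01, while the receptor chains ITGA6 and ITGB4 had 1.58 and 2.82.

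LAMB1, the beta chain of the widely distributed laminins that contain LAMC1, had 8323 counts and 176 TPM in SP, against 5391 counts and 79.9 TPM in KSFM. At 1.97-fold (1.90 to 2.04) it was not called. It made up 28.7% of laminin beta TPM in SP and 11.7% in KSFM, whereas LAMB3 made up 63.0% in SP and 81.2% in KSFM. LAMB2, the beta chain of neuromuscular and glomerular laminins, had 49.4 TPM in SP and 48.9 TPM in KSFM, with a count ratio of 0.906 (0.859 to 0.956). LAMC1 had 4522 counts in SP and 5766 in KSFM, a ratio of 1.00 (0.962 to 1.04). LAMB4, a little studied beta chain, had 35 counts in SP and 1 in KSFM, and its ratio of 44.6 had an interval of 7.50 to 1813. LAMC3 had 1 count in SP and 4 in KSFM.

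**Figure D3:**
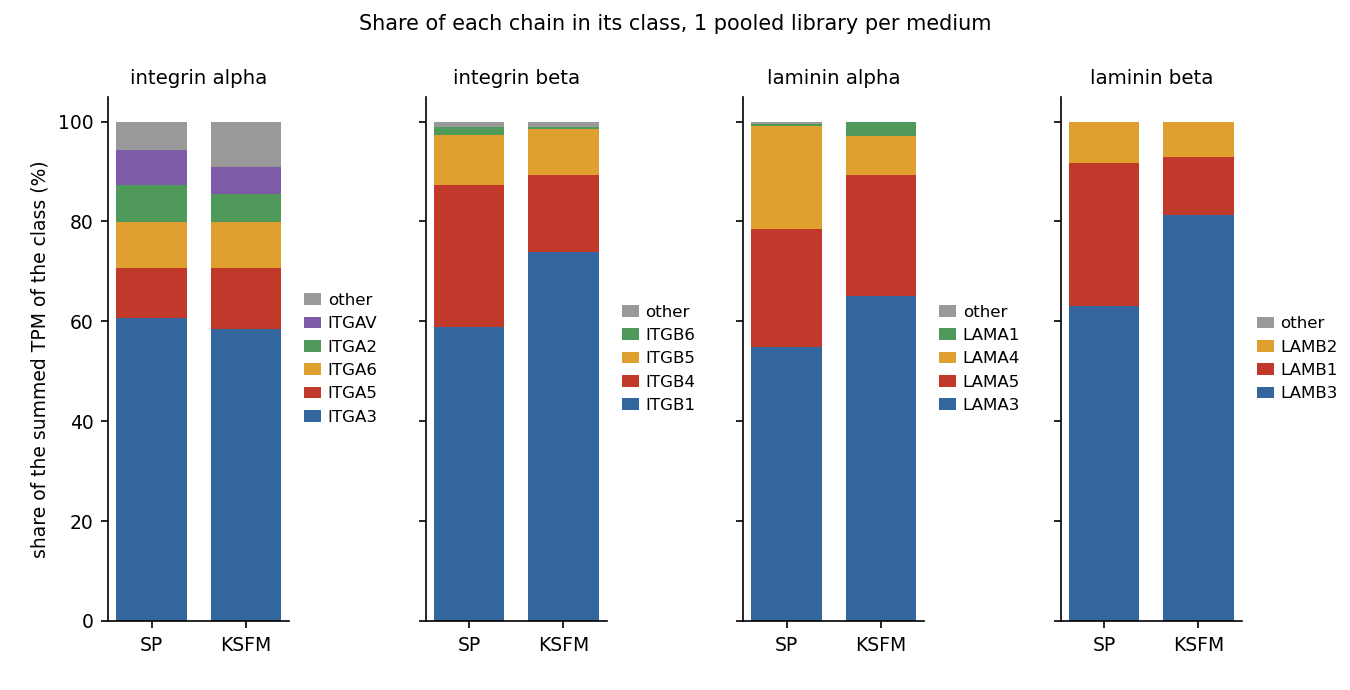
Share of each chain in the summed TPM of its class (integrin alpha and beta, laminin alpha and beta), in percent, for the SP bar on the left and the KSFM bar on the right of each panel, with 1 pooled library per medium. ITGB1 and LAMB3 fill most of their classes in both media and take smaller shares in SP (58.9% and 63.0%) than in KSFM (73.9% and 81.2%).

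Fibroblasts, endothelium, muscle and nerve also make LAMA2 and LAMA4, and their markers were read beside these chains. The 7 fibroblast markers summed to 3.25 TPM in SP and 2.64 TPM in KSFM, with COL1A1 at 143 counts in SP and 166 in KSFM and LUM and KERA at 0 in both. The 6 endothelial markers summed to 7.82 TPM in SP and 0.30 TPM in KSFM, of which CDH5 made up 7.09 TPM in SP and 0.06 TPM in KSFM. CDH5 was the only 1 of them to reach 1 CPM, through the SP library only, with 236 counts in SP and 3 in KSFM. PECAM1 had 15 and 2, KDR had 10 and 10, VWF had 2 and 6, and TEK had 0 in both. The 6 muscle and nerve markers summed to 5.94 TPM in SP and 4.08 TPM in KSFM, of which the muscle filament gene DES had 47 counts in SP and 22 in KSFM, 2.72-fold (1.61 to 4.75), and MYH3 had 144 and 214. The endothelial cadherin gene CDH5 thus was higher in SP along with LAMA4, and DES along with LAMA2. No other endothelial, muscle or nerve marker was called, most of them being below 1 CPM. The part of such cells in the results was not tested. In bulk RNA fewer cells of a type and less RNA per cell cannot be told apart.

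By chain pairs and trimers known from textbooks, 15 of 24 integrin pairs had both chains at 1 TPM or more in SP and 11 in KSFM. The 4 pairs above this level in SP and not in KSFM were ITGAV with ITGB8, ITGA4 with ITGB1, ITGA4 with ITGB7 and ITGAE with ITGB7. The last pairs rest on ITGB7 at 1.01 TPM in SP and 0.21 TPM in KSFM, just inside the level in SP. Of 8 laminin trimers, 5 had all chains at 1 TPM or more in SP and 6 in KSFM, and the trimer of LAMA1, LAMB1 and LAMC1 was above the level in KSFM and not in SP because LAMA1 stood at 0.92 TPM there. The share of all genes that reached 1 TPM in only 1 of the libraries was not taken. On TPM the median gene was itself shifted toward SP, by 0.15 on the log2 scale with a pseudocount of 1. The counts of pairs and trimers therefore describe these chains and do not set them apart from other genes. Transcripts do not show which chains were assembled.

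Summed by class, integrin alpha chains had 684 TPM in SP and 398 TPM in KSFM, and beta chains 704 TPM in SP and 415 TPM in KSFM. Laminin alpha chains had 197 TPM in SP and 148 TPM in KSFM, and laminin beta chains 611 TPM in SP and 685 TPM in KSFM. The median log2 ratio of scaled counts was 0.68 over the 19 integrins at 1 CPM and 0.01 over the 11 laminins, and −0.00 over all 13632 genes. With the level asked of the mean, the medians were 0.67 over 18 integrins and 0.01 over 11 laminins. On TPM the median of all genes itself was shifted by 0.15 on the log2 scale with a pseudocount of 1. Calls on TPM, here and below, used the 1 CPM level and the 2-fold rule without an interval, because TPM gives no depth. With a pseudocount of 1, 7 members were called higher and 2 lower in this way, where 9.29% and 2.56% of all genes were. ITGA2, ITGAV and LAMB1 passed the fold rule there, while ITGA2B, ITGA4, ITGB7, LAMA2 and LAMB4 did not. With a pseudocount of 0.1, 12 members were higher and 2 lower, where 12.3% and 4.44% of all genes were. After the shift was removed, 3 members (ITGB4, ITGB6 and LAMA4) were higher and 2 lower, where 6.81% and 3.93% of all genes were. ITGAE and LAMA1 were lower on each of these scales.

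The genes that work with these chains were read from 6 lists of related genes. The background for the calls in each list is that over all genes at 1 CPM, 9.86% called higher and 6.77% called lower. Of the 29 adaptors and kinases on the inner side of integrin adhesions, 27 reached 1 CPM, 5 were called higher and none lower, with a median log2 ratio of 0.29. TNS3, a tensin that binds the tails of beta chains, had 34.1 TPM in SP and 8.65 TPM in KSFM, 3.54-fold (3.26 to 3.85). The actin crosslinker ACTN4 had 287 TPM in SP and 87.1 TPM in KSFM, 2.95-fold (2.84 to 3.06), and VCL, which encodes vinculin, was 2.21-fold higher (2.09 to 2.33). LIMS2 passed the level only through SP, with 27 counts in SP and 16 in KSFM. ILK, the integrin-linked kinase, named after its value was seen, was 2.11-fold higher (1.94 to 2.30). LIMS1 and FERMT1 lay below equality, with ratios of 0.605 (0.562 to 0.652) and 0.686 (0.622 to 0.756), and were not called.

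Of the 6 hemidesmosome partners of ITGB4, 5 reached 1 CPM and none was called, with a median log2 ratio of −0.11 that became 0.08 once a trend on length and GC content was removed. PLEC, which encodes plectin, the linker between ITGB4 and keratin filaments, had 60.1 TPM in SP and 101 TPM in KSFM. It was 1.87-fold lower (1.82 to 1.92), and its log2 ratio of −0.90 became −0.53 with that trend removed. The 5 partners had ratios on both sides of equality. CD151, a tetraspanin that associates with laminin-binding integrins, had 282 TPM in SP and 267 TPM in KSFM, with a count ratio of 0.928 (0.887 to 0.971). Of 18 other basement membrane genes, 15 reached 1 CPM and none was called, with a median of −0.05, or 0.09 with that trend removed. SPARC was 1.71-fold higher (1.62 to 1.79) and AGRN, the proteoglycan agrin, 1.44-fold higher (1.39 to 1.49), both short of the fold rule.

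All 6 non-integrin laminin receptors reached 1 CPM, 1 was called higher and 2 lower, with a median of −0.17. BCAM, a receptor for laminins with the LAMA5 chain, had 111 TPM in SP and 28.2 TPM in KSFM, 3.70-fold (3.42 to 4.001). SDC2, a syndecan, was 3.48-fold lower (2.60 to 4.72). RPSA, which is also a protein of the small ribosomal subunit and has many pseudogenes, was 2.02-fold lower (1.99 to 2.06), a call that ended on TPM, with a log2 ratio of −0.96 after centring, with the length and GC trend removed, at −0.82, and where the whole interval had to lie beyond 2-fold. The BCAM ratio was larger than that of its ligand chain LAMA5, which was 1.17-fold.

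Of 21 other integrin ligands, 16 reached 1 CPM, 3 were called higher and 1 lower, with a median of 0.38. FN1, which encodes fibronectin, the ligand of ITGA5 with ITGB1, had 448 TPM in SP and 840 TPM in KSFM and was 2.10-fold lower (2.07 to 2.13). On TPM without centring, with either pseudocount, 0 genes of this list were called lower, so the FN1 call was lost there. TGFB2, a TGF-beta, was 5.64-fold higher (4.64 to 6.90), and any link to ITGB6 or ITGB8 was not tested. The other TGF-betas of the list, TGFB1 and TGFB3, whose latent forms ITGAV with ITGB6 activates, were not called. TGFB1 was 1.33-fold higher (1.18 to 1.49). TGFB3 had 24 counts in SP and 43 in KSFM, a ratio of 0.712, and its interval included equality. ICAM1, a ligand of the ITGB2 integrins, was 4.42-fold higher (3.86 to 5.07). VTN, which encodes vitronectin, had 65 counts in SP and 2 in KSFM and passed the level only through SP, with a ratio of 41.4 (11.02 to 349.5). Of 11 netrins and laminin-trimming proteases, 6 reached 1 CPM, 2 were called higher and none lower, with a median of 0.86. MMP2, a matrix metalloproteinase, had 48.1 TPM in SP and 5.16 TPM in KSFM, 8.26-fold (7.10 to 9.65). PLG, which encodes plasminogen, had 23 counts in SP and 0 in KSFM, at least 9.78-fold higher against a floor of 3 counts in the KSFM library. Its exact interval, which allows for the error of both counts, began lower, at 7.33. PLG passed the level only through SP and so had to be high there, and its bound enters the median of this list. With the level asked of the mean of the libraries, 1 gene of the list was called higher.

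**Figure D4:**
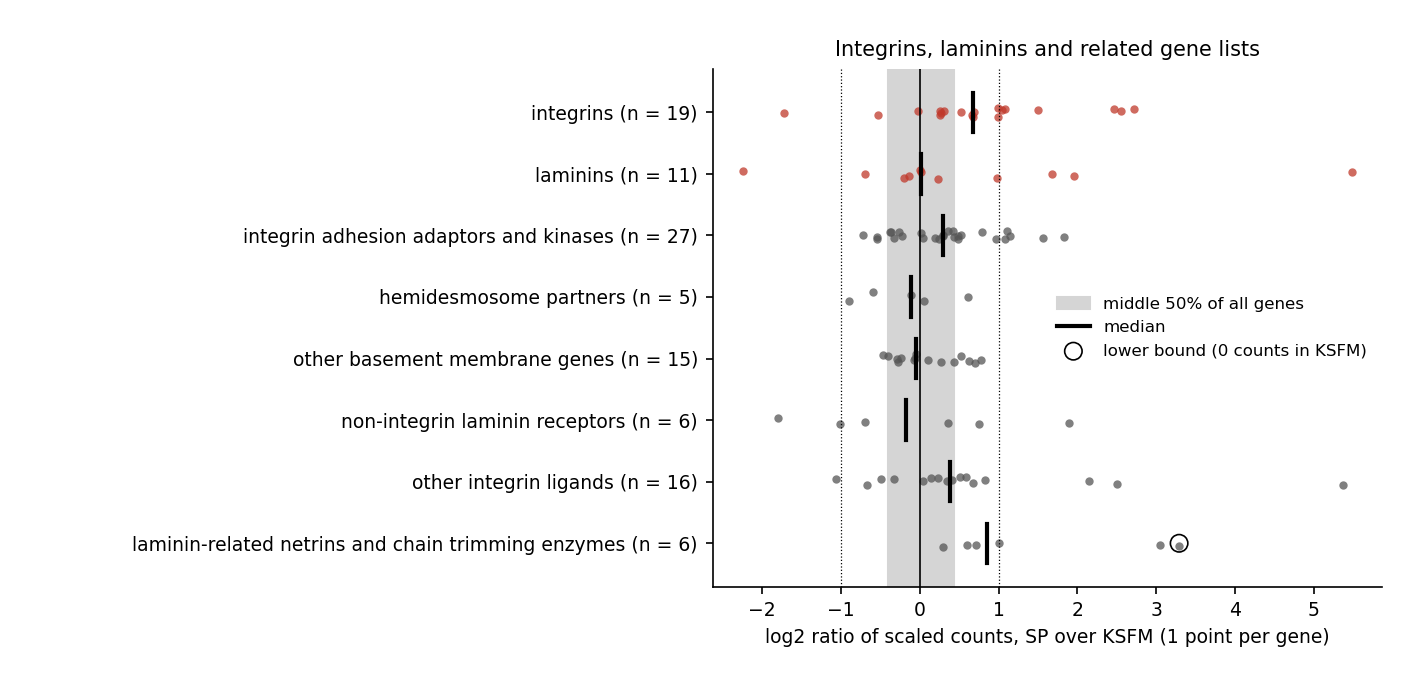
Log2 ratio of scaled counts, SP over KSFM, with 1 point per gene at 1 CPM or more in either library, for the integrins, the laminins and 6 related lists. Black bars are medians, the grey band is the middle 50% of all genes (−0.41 to 0.43), dotted lines mark the 2-fold rule and the ringed point is a lower bound for PLG. The band describes single genes and is no measure for a median. The integrin points run further to the right than to the left, and the laminin points extend to both sides.

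The estimated count per TPM, which tracks the transcript length used by the quantifier, was compared between the libraries for the 23 members at 1 TPM or more in both. Relative to the median gene, the ratio of SP over KSFM ran from 0.992 for ITGB6 to 1.03 for LAMA4, within the middle 95% of 12609 genes (0.932 to 1.07). Of the called members, ITGA2B, ITGAE, ITGB4, ITGB6 and LAMA4 could be read in this way.

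On GRCh38, in GENCODE release 29 gene bounds, ITGB6 spans chromosome 2 from 160099666 to 160200313 and ITGB8 chromosome 7 from 20330702 to 20415754. ITGB4 spans chromosome 17 from 75721328 to 75757818, LAMA4 chromosome 6 from 112108760 to 112254939, and LAMA1 chromosome 18 from 6941744 to 7117814. LAMB1 (107923799 to 108003255) and LAMB4 (108023548 to 108130356) are neighbours on chromosome 7, with ratios of 1.97 and 44.6. LAMC1 spans chromosome 1 from 183023460 to 183145592. The kit was stranded, but whether the counting used strand is not given in the sources used here, so reads in overlapping exons cannot be assigned with certainty. ITGB7 shares 1886 exon bases with ZNF740 on the other strand, which had 1471 counts in SP and 1917 in KSFM, far above the 23 and 5 of ITGB7. ITGAE shares 427 exon bases with HASPIN on the other strand, which had 497 counts in SP and 461 in KSFM. ITGA1 shares 475 exon bases with PELO on its own strand, where a strand setting would not separate the reads. PELO had 802 counts in SP and 1021 in KSFM, against 495 and 439 for ITGA1. LAMA1 shares 1641 exon bases with an antisense transcript. On their own strands, ITGB6 shares 966 with a transcript and ITGB3 shares 2266 with a gene. The counts of these last 3 overlapping partners were not analysed here.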

How the data were processed

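The authors deposited 2 tables by gene symbol, one of estimated counts and one of TPM values, with 1 column per medium. Per the submitters' processing notes, reads were handled with HISAT2 2.1.0, FastQC 0.11.9, RSEM and fastp 0.20.0 on GRCh38. Which strand setting, RSEM version and annotation release were used is not given in the sources used here. Members and lists were chosen with earlier results of these data known.

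Estimated counts were rounded to whole numbers (3 members had fractions), and TMM factors from edgeR 4.0.16, 1.00 for SP and 0.999 for KSFM, scaled the library sizes. Ratios of SP over KSFM have Clopper-Pearson intervals given the summed count of both libraries. A count of 0 was set to 3 counts, giving a bound. The labels name no molecular identifiers, so reads may not be independent molecules and the intervals hold counting error only.

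Every member at 1 CPM was described, except 1 member that is not reported here, as is 1 marker gene. Both are kept in counts and medians. In each related list up to 4 called genes per direction were named by size of ratio, or the 2 with the highest mean TPM where none was called. LIMS1, FERMT1, TGFB1 and TGFB3, which were not called, were named besides, after their values were seen. CCN1 and CCN2 were found under CYR61 and CTGF. The alternatives were scaling by upper quartile, by total count or by DESeq2 1.42.0, TPM with a pseudocount of 0.1 or 1, TPM centred on the median gene, CPM levels of 10 or none, a 4-fold rule, and an interval wholly beyond 2-fold. A level on the mean, and removal of a cubic trend on length and GC content, were chosen after seeing the data. The tools were Python 3.11.15 with matplotlib 3.10.9, pandas 2.3.3, scipy 1.17.1 and numpy 2.4.6, and R 4.3.3.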

Additional observations from a re-analysis of the deposited data

How the results depend on the processing

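No paired analysis was possible because each medium has 1 pooled library and the columns carry no replicate numbers. Among members, 9 were called higher and 2 lower, where 9.86% and 6.77% of all genes at 1 CPM were. On centred TPM 3 were higher and 2 lower, where 6.81% and 3.93% of all genes were. With the interval wholly beyond 2-fold 7 were higher, without ITGA2B and ITGA4. With the length and GC trend removed 10 were higher, with ITGA2 added. At a level of 10 CPM 4 were higher, and the share of all genes tested there was not taken. By the 4-fold rule 4 were higher and 1 lower. By the 4-fold rule ITGAE was lost and LAMA1 remained. Over the 13632 genes at 1 CPM, 1344 were called higher and 923 lower. At 10 CPM these were 788 and 446, by the 4-fold rule 408 and 162, and with the interval wholly beyond 2-fold 837 and 395. They were 1266 and 349 on TPM with a pseudocount of 1, 1671 and 605 with 0.1, 928 and 536 after centring, and 1228 and 583 after removal of the length and GC trend. Total count, DESeq2 and upper quartile scaling gave the same 9 higher and 2 lower members. No called member changed direction under any alternative run, and the medians of the hemidesmosome partners and of the other basement membrane genes changed sign with the length and GC trend removed. The cause of the other changes was not tested. With single pooled libraries no variation between cultures can be measured, and members with few counts, such as ITGB7 and LAMB4, have wide intervals.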

Other observations

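The tables hold 8 further genes whose symbols begin like those of the members, of which 2 were called higher in SP, none lower, 2 were neither and 4 were below 1 CPM. Of all genes at 1 CPM, 9.86% were called higher and 6.77% lower. ITGBL1, a secreted protein that resembles part of an integrin beta chain, had 717 counts in SP and 390 in KSFM, 2.34-fold (2.07 to 2.66). ITGB2-AS1, the antisense transcript of ITGB2, had 47 counts in SP and 10 in KSFM, 5.99-fold (2.99 to 13.3), where ITGB2 itself had 102 and 109. Because ITGB2 and ITGB2-AS1 share 303 exon bases on opposite strands, reads there cannot be told apart without the strand setting. ITGB1BP1, which binds the tail of ITGB1 and is also among the listed adaptors, had a ratio of 0.833 (0.765 to 0.906).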
